A study of Mus musculus with 6 samples.

Results

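The cytochrome P450 genes of mouse lung were described in 3 Nogo-A/B knockout and 3 wild-type lungs. They were taken as all genes on the array whose symbol is Cyp followed by a digit, leaving out Cyp51, and each gene was read from its brightest probe over the 6 arrays. The array carried 102 probes for 70 such genes. Of these, 51 genes were kept because their brightest probe stood well above background on 3 or more of the 6 arrays of either genotype, out of 20423 genes kept by the same rule and 27951 named on the array. Some probes are assigned to transcripts of several P450 genes, and counting linked genes once left 46 separate signals. The knockout was of Nogo-A and Nogo-B, which the reticulon gene Rtn4 encodes, and the lungs came from naïve male mice aged 8 weeks, numbered 1, 11 and 12 in the knockout and 11, 12 and 13 in the wild type. The labels give no strain, allele or method of deletion, and no treatment was applied to either group. RNA of each whole lung was labelled with Cy3 and hybridised to an array of 60-base probes, and a level is the log2 signal relative to the 75th percentile of its array.

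Cytochromes P450 are haem enzymes that insert an oxygen atom into a substrate with electrons passed on by cytochrome P450 reductase in the endoplasmic reticulum, or by adrenodoxin in mitochondria. Enzymes of the first families oxidise drugs, toxins and odorants, while others work on fatty acids, steroids, bile acids, retinoids and vitamin D. In rodent lung, club cells of the conducting airways are known for a high content of P450 enzymes, and they are a classical target of compounds that these enzymes turn into reactive products.

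The tissue, the deletion and the arrays were checked first. A probe in the Rtn4 locus (mm7 chromosome 11, 29649392 to 29649451) was well above background in 0 of 3 knockout lungs and in 3 of 3 wild-type lungs. Another pair of Rtn4 probes (29693516 to 29693723 and 29693536 to 29694301) was well above background in all 6 lungs, and the brighter gave 1.01, -0.79 and -1.87 in knockout 1, 11 and 12, against 1.59, 1.53 and 2.28 in wild type 11, 12 and 13. Without the extent of the deletion in the labels, whether those probes lie inside it is not known here. The lung epithelial markers Sftpc and Scgb1a1 were well above background in all 6 lungs. The share of probes well above background ran from 68.9% to 78.0% between arrays. The arrays were scanned on 2 days, knockout 1, knockout 11 and wild type 13 on day 1 and knockout 12, wild type 11 and wild type 12 on day 2. Knockout 1 and wild type 13 shared slide 1, knockout 11 was alone on slide 2, and the day 2 arrays shared slide 3, so that knockout 11 and its slide cannot be told apart. Scan day went with many genes, since 11.1% of all 20423 genes differed between days at an adjusted p under 0.05 (limma, genotype in the model), against 0 of the 51 P450 genes. Differences within each day are therefore given below, where within a day 1 genotype has a single array.

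P450 genes of every role were detected in the lung. On all 6 arrays 42 of the 70 genes were well above background, and on none of them 8 were. Among enzymes of drug, toxin and odorant metabolism 28 of 41 genes were kept, and among fatty acid and eicosanoid enzymes 11 of 12. Of the sterol and bile acid enzymes 5 of 6 were kept, of the retinoid and vitamin D enzymes 4 of 5, of the steroid hormone enzymes 2 of 5, and Cyp20a1, an orphan P450 with no settled substrate, was kept as well. The subfamilies 2b and 4a were kept whole, with 4 of 4 and 3 of 3 genes, as were the single genes Cyp2f2 and Cyp4b1. The subfamily 2a kept Cyp2a4 and Cyp2a5 and lost Cyp2a12, a liver enzyme with 0 arrays well above background. The subfamily 2c kept 6 of 11 genes, 2d kept 4 of 5, 2j kept 4 of 5, 3a kept 3 of 6 and 4f kept 4 of 5. The genes well above background on no array were Cyp2a12, Cyp2c38, Cyp2c39, Cyp2g1, Cyp2j5, Cyp8b1, Cyp19a1 and Cyp24a1. They include aromatase (Cyp19a1), the vitamin D inactivating enzyme Cyp24a1, the bile acid hydroxylase Cyp8b1 and the olfactory enzyme Cyp2g1. A further 8 genes reached that mark on a single array, namely Cyp2c54, Cyp2c65, Cyp2d13, Cyp3a16, Cyp3a25, Cyp3a44, Cyp4f14 and Cyp11b2.

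Few genes stood at the detection threshold itself. Just inside it, Cyp26a1, an enzyme that degrades retinoic acid, was well above background on 3 arrays, 2 of them knockout. Just outside it, Cyp1a2, an inducible enzyme best known from liver, Cyp21a1, a steroid hydroxylase of the adrenal, and Cyp2c40, which hydroxylates arachidonic acid, were well above background on 2 arrays each, 1 of either genotype. Detection also differed between lungs, with 59, 44 and 49 of the 70 genes well above background in knockout 1, 11 and 12 and 50, 52 and 53 in wild type 11, 12 and 13. Over all probes the share well above background was 78.0%, 71.8% and 71.3% in knockout 1, 11 and 12 and 68.9%, 70.3% and 77.3% in wild type 11, 12 and 13. Knockout 1 was thus the highest of the 6 by either measure, while the fewest detected P450 genes were in knockout 11 and the lowest share of all probes in wild type 11.

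No P450 gene passed the adjusted threshold between the genotypes. In limma 0 of 51 members had an adjusted p under 0.05, where 0% of all 20423 genes did. At an unadjusted p under 0.05 there were 4 members, all lower in the knockout, namely Cyp2a4, Cyp2a5, Cyp2e1 and Cyp4a12. They make up 7.84% of the members, where 0.612% of all genes were lower at that threshold, and they stand for 3 separate signals. These shares moved with the lungs used, and without wild type 13 the members at an unadjusted p under 0.05 were 4 (7.84%), where 7.41% of all genes reached it. In the higher direction 0 members reached it, where 0.338% of all genes did. The knockout lungs all lay below the wild-type lungs for 6 members, the same 4 with Cyp4a10 and Cyp27b1, where 1.45% of all genes showed such a separation. They all lay above the wild type for 0 members, where 2.71% of all genes did, so that either kind of separation held for 11.8% of the members and 4.17% of all genes.

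**Figure D1:**
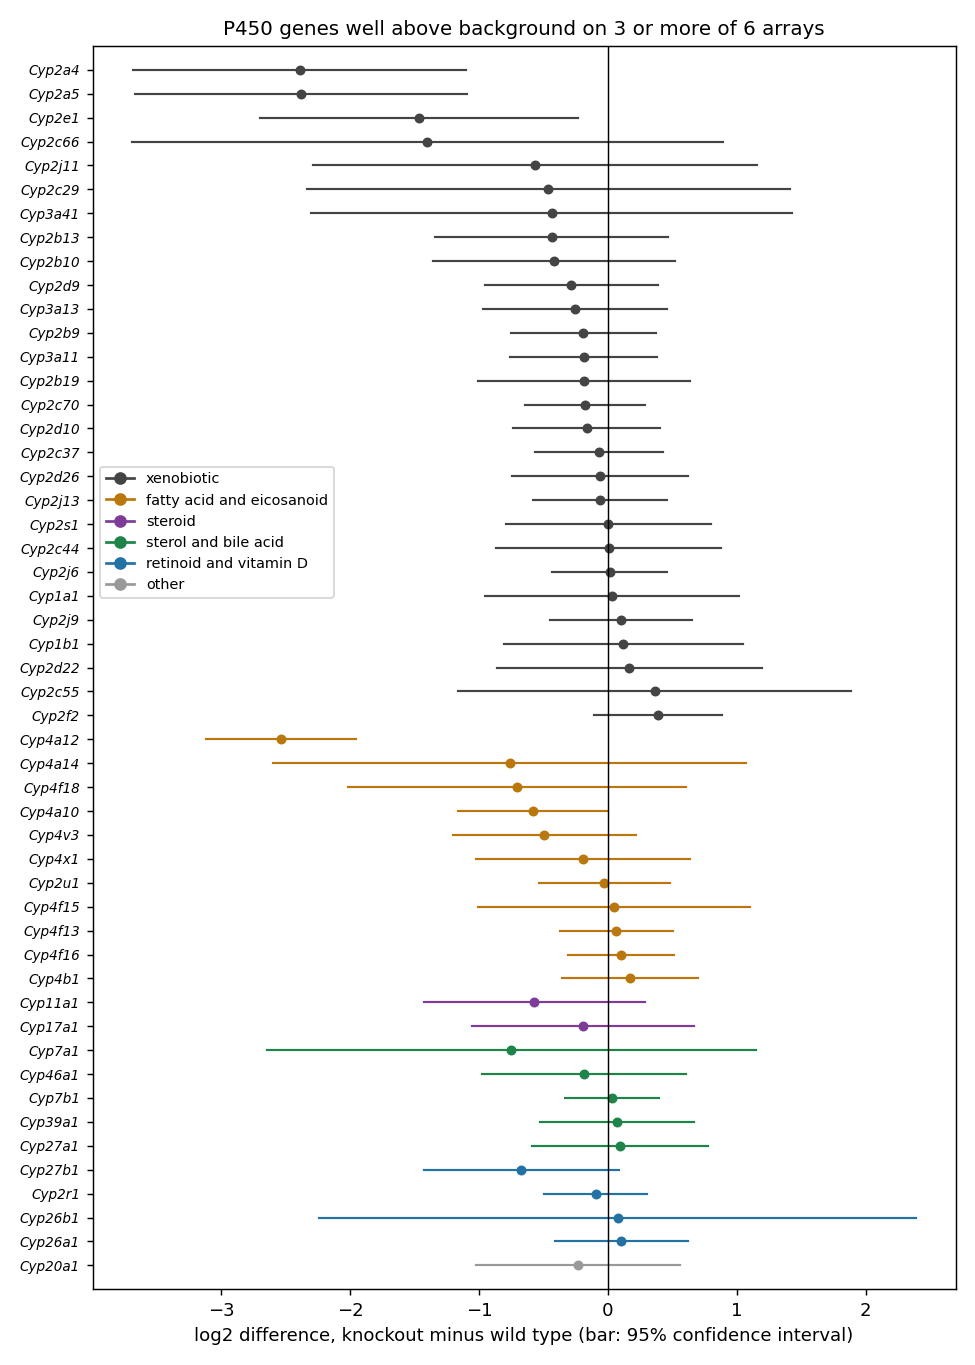
Log2 difference, knockout minus wild type, of the 51 kept P450 genes, coloured by role and sorted by size within a role, with 95% confidence intervals from limma over 3 knockout and 3 wild-type lungs. The intervals of Cyp2a4, Cyp2a5, Cyp2e1 and Cyp4a12 lie below 0, and the other intervals cross it.

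Beyond these genes, the family as a whole sat slightly lower in the knockout, and that offset changed with the lungs and the fit. The median difference was -0.18 over the 51 members and 0.02 over all genes, and 33 members (64.7%) had a difference below 0, where 45.5% of all genes did. The lowest of the 6 values fell in knockout 11 for 23 members (45.1%, background 22.2%), in knockout 1 for 16 members (31.4%, background 18%) and in knockout 12 for 1 member (1.96%, background 12.1%). Without knockout 11 the members' median was 0.04, above 0, without knockout 1 it was -0.11, without knockout 12 -0.33 and without wild type 13 -0.09. It was -0.10 with scan day as a block, -0.10 with the replicate number as a block and -0.05 with slide as a random block. The spread between lungs was larger in the knockout for 39 members (76.5%, background 56.9%), with a median SD of 0.45 in the knockout and 0.24 in the wild type. The median also turned with the scan day, at -0.50 within day 1 and 0.26 within day 2. Within day 1, 45 members (88.2%) had a difference below 0, where 54.1% of all genes did, and within day 2, 38 members (74.5%) had a difference above 0, where 62.3% of all genes did.

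**Figure D2:**
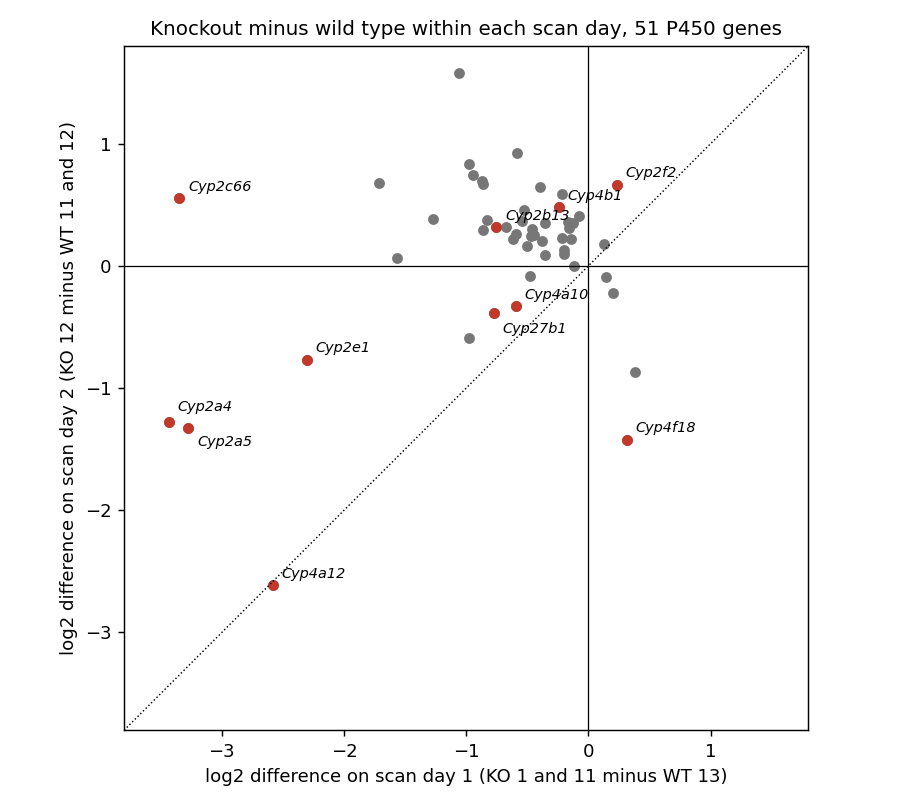
Log2 difference, knockout minus wild type, of the 51 P450 genes within scan day 1 (horizontal axis, knockout 1 and 11 minus wild type 13) and within scan day 2 (vertical axis, knockout 12 minus wild type 11 and 12), with equal values on the dotted line. Most genes lie to the left of 0 on day 1 and above 0 on day 2, while Cyp2a4, Cyp2a5, Cyp2e1 and Cyp4a12 lie below 0 on both.

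On both days 9 members lay below 0 (17.6%, background 13.9%) and 2 members lay above 0 (3.92%, background 22.1%). The 9 were Cyp2a4, Cyp2a5, Cyp2e1, Cyp2u1, Cyp4a10, Cyp4a12, Cyp4v3, Cyp11a1 and Cyp27b1, and the 2 were Cyp2f2 and Cyp4f16. Cyp2u1 and Cyp4f16, whose products hydroxylate long-chain fatty acids or their relatives, differed by only -0.03 and 0.10 over all lungs.

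The subfamily 2a held the widest differences among the enzymes of drug, toxin and odorant metabolism. Cyp2a5 encodes the coumarin hydroxylase of the mouse, which also acts on nicotine, and Cyp2a4 encodes a steroid hydroxylase whose sequence is nearly identical. The level of Cyp2a5 was -0.41, 1.02 and 1.52 in knockout 1, 11 and 12, against 2.94, 2.75 and 3.58 in wild type 11, 12 and 13. Every knockout value lay below every wild-type value, with knockout 1 the lowest and wild type 13 the highest. The log2 difference was -2.38 (SE 0.53, n = 3 each), or 5.20-fold, and limma gave an unadjusted p of 0.00388 (adjusted p 0.9997). Cyp2a4 gave -1.86, -0.58 and -0.03 in knockout 1, 11 and 12, against 1.35, 1.15 and 2.22 in wild type 11, 12 and 13, a log2 difference of -2.39 (SE 0.53) with an adjusted p of 0.9997 in limma. The lungs fell in the same order of level within each genotype for both genes, which together count as 1 signal.

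**Figure D3:**
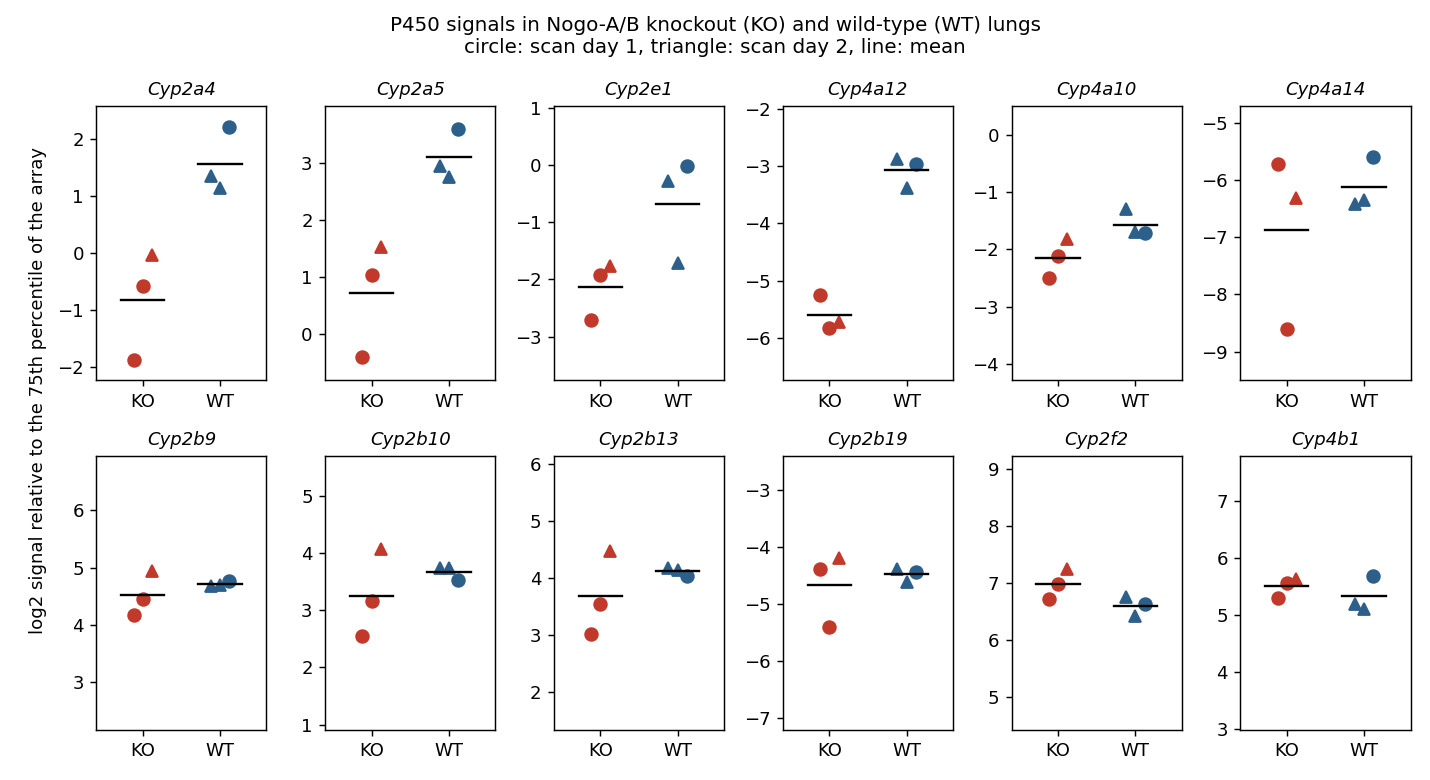
Log2 signal of 12 P450 genes relative to the 75th percentile of the array, in each knockout lung (left) and wild-type lung (right), with circles for scan day 1, triangles for scan day 2 and a line at the group mean. Cyp2a4, Cyp2a5, Cyp2e1, Cyp4a12 and Cyp4a10 show no overlap between genotypes, and the 2b genes, Cyp4a14, Cyp2f2 and Cyp4b1 overlap.

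The 2a difference was below 0 on both scan days and wider on day 1. For Cyp2a5 it was -3.28 within day 1 and -1.32 within day 2, and for Cyp2a4 it was -3.44 and -1.28. With scan day as a block it was -2.30 (SE 0.59) for Cyp2a5 and -2.36 (SE 0.60) for Cyp2a4, and leaving out 1 lung at a time kept Cyp2a4 between -2.79 and -1.87. Whether fewer cells that make these transcripts or less transcript in each cell lowers a signal cannot be told apart in RNA of a whole lung.

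The array reads the pair with 4 probes, and 3 of them list a transcript of both genes. The remaining probe, the brightest for Cyp2a5 (mm7 chromosome 7, 23212221 to 23212279, plus strand), overlaps the brightest for Cyp2a4 (23212199 to 23212258) by 38 bases. The overlapping stretches differ at 3 bases, shown in capitals in these windows of 30 bases:
Cyp2a4 window: aggacacTTCgtagacttgcagaggatatt
Cyp2a5 window: aggacacAGAgtagacttgcagaggatatt
The other Cyp2a4 probe, which lists both transcripts, spans 1066 bases of the genome (23210886 to 23211951) with 60 bases of sequence, printed to show what both transcripts are read by:
Cyp2a4: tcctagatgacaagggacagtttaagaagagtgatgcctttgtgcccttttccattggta
All 4 probes gave nearly the same difference, from -2.52 for the other Cyp2a4 probe to -2.38 for the brightest Cyp2a5 probe, and none of them overlapped between genotypes.

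**Figure D4:**
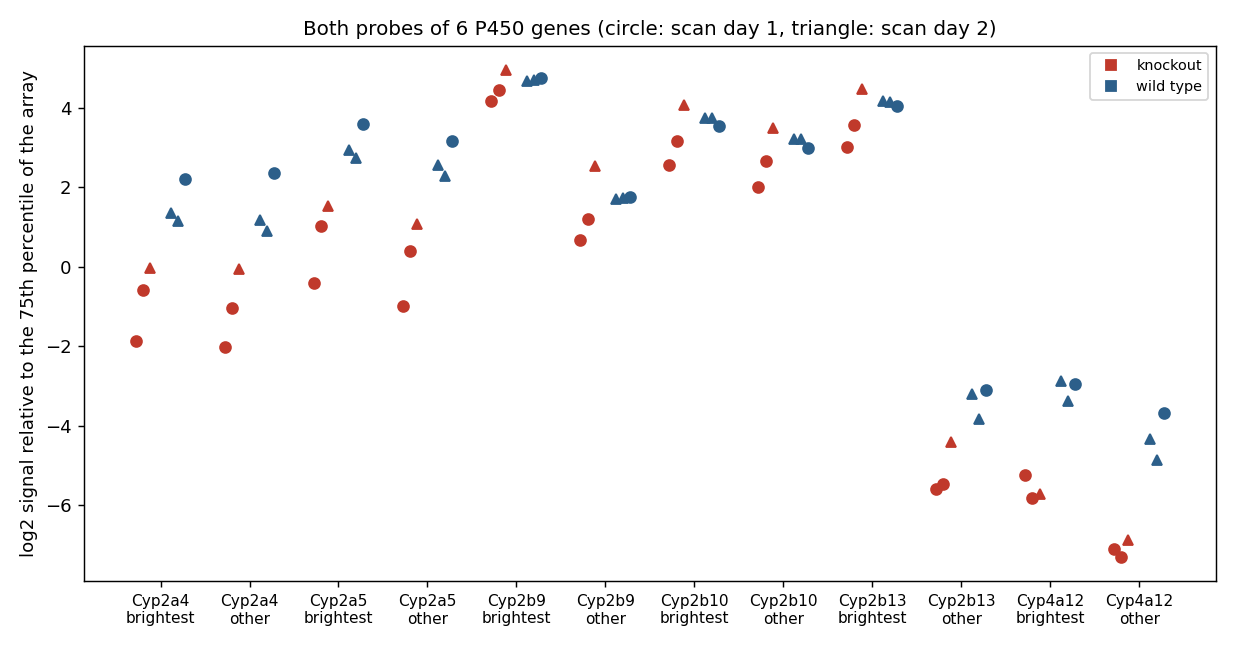
Log2 signal of the brightest and the other probe of 6 P450 genes relative to the 75th percentile of the array, knockout lungs left of wild-type lungs for each probe, with circles for scan day 1 and triangles for scan day 2. Levels of different probes are not comparable. The 4 probes of Cyp2a4 and Cyp2a5 and the 2 probes of Cyp4a12 separate the genotypes, and the 2 probes of Cyp2b13 differ from each other.

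The starts of both 2a genes are almost identical as well. Their 249 bases before the start (RefSeq, GRCm38.p6, plus strand) are at chr7:26306943-26307191 for Cyp2a4 and chr7:26835089-26835337 for Cyp2a5, and they are shown because both members of this signal share them, with the 4 differing bases in capitals (98.4% identity):
Cyp2a4: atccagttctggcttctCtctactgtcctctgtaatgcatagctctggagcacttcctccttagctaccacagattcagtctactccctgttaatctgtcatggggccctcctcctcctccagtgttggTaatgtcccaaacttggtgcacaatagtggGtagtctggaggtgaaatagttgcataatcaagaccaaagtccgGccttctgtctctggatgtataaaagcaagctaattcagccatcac
Cyp2a5: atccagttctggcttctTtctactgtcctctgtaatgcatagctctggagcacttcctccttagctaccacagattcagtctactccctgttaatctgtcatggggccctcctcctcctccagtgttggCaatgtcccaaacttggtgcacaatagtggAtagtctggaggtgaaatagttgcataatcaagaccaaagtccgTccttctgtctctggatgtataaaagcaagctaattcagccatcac
Both stretches hold TATAAA, a core promoter element, at base 222 of the printed stretch, TTGCNNAA at base 180 and CAAAGTCC at base 195, searched on both strands with letters chosen after the sequences were seen. Among 32851 promoters of the same table, 12.37% hold TATAAA, 9.564% hold TTGCNNAA and 1.196% hold CAAAGTCC. Of the other members, only Cyp2b9, Cyp2b10, Cyp2b13, Cyp2b19, Cyp2e1, Cyp2f2 and Cyp4b1 were searched. Among these, TATAAA also stands before Cyp2e1, and TTGCNNAA before Cyp2b9, Cyp2b10, Cyp2b13 and Cyp2b19. The remaining members were not searched for these letters. The table held a promoter for 40 of the 51 members, and a match is only a run of letters.

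Cyp2a4 and Cyp2a5 lie within a large P450 cluster on chromosome 7. The other kept genes there overlapped between genotypes on their brightest probes. By probe position on mm7 the kept genes run from Cyp2s1 over Cyp2b10, Cyp2b13, Cyp2b9, Cyp2a4 and Cyp2a5 to Cyp2b19 and Cyp2f2. The probes of Cyp2a4 and Cyp2a5 are placed at overlapping positions although their sequences differ. In GRCm38.p6 the stretches before the 2 genes lie apart, from 26306943 for Cyp2a4 and from 26835089 for Cyp2a5. The order of probes therefore does not give the place of each 2a gene in the cluster. Cyp2s1, a P450 of airway and other epithelia, differed by 0.00 (SE 0.33) and overlapped between genotypes. The 4 genes of subfamily 2b, known in liver as targets of phenobarbital-like inducers, count as 2 signals, with Cyp2b9, Cyp2b10 and Cyp2b13 linked. On their brightest probes the 4 genes differed by -0.44 to -0.18, and all overlapped.

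**Figure D5:**
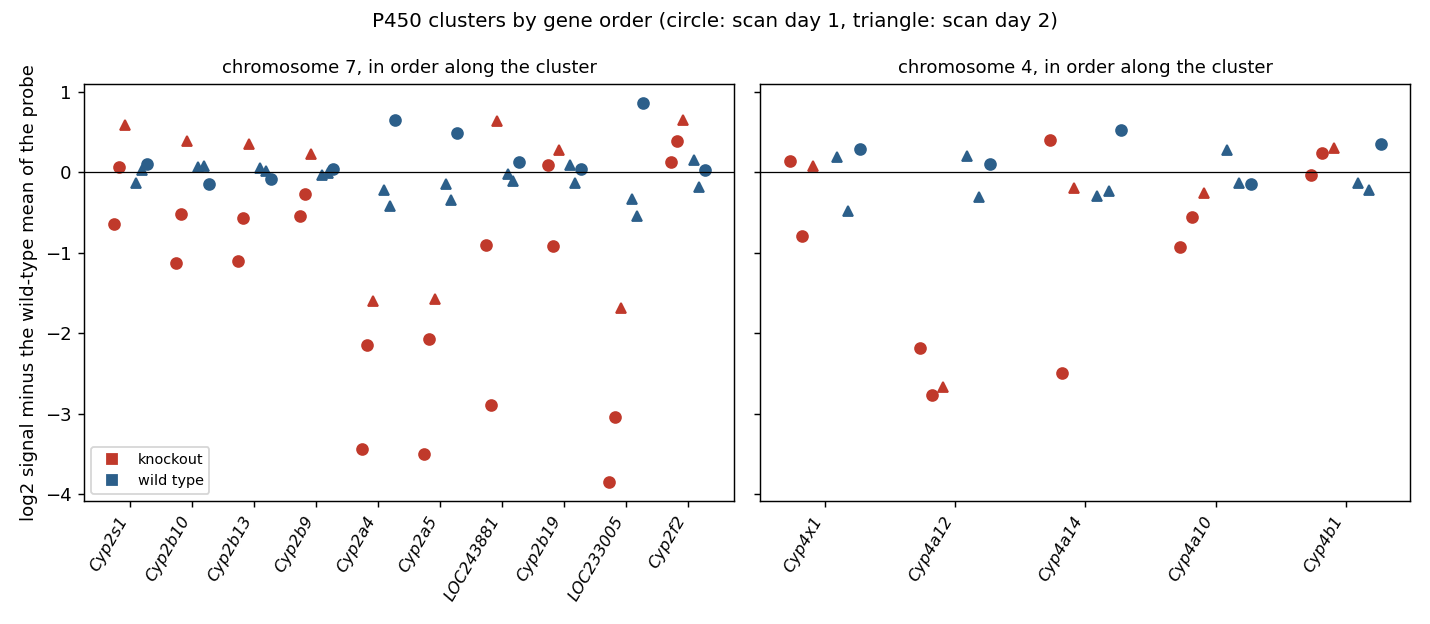
Log2 signal of P450 probes minus the wild-type mean of the same probe, in order of mm7 probe position along the clusters on chromosome 7 (left) and chromosome 4 (right). Knockout lungs are left of wild-type lungs, with circles for scan day 1 and triangles for scan day 2. The probes of Cyp2a4 and Cyp2a5 are placed at overlapping positions, so their order is not that of the genes. Cyp2a4, Cyp2a5 and LOC233005 on chromosome 7 and Cyp4a12 on chromosome 4 lie low in all 3 knockout lungs, while Cyp2s1, Cyp2f2, Cyp4x1 and Cyp4b1 beside them overlap.

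Within subfamily 2b the knockout lungs were spread around the wild type. Cyp2b10 measured 2.55, 3.16 and 4.07 in knockout 1, 11 and 12, against 3.75, 3.75 and 3.53 in wild type 11, 12 and 13. Knockout 12 was thus the highest of the 6 lungs and knockout 1 the lowest. The log2 difference of Cyp2b10 was -0.42 (SE 0.39), and its 95% confidence interval ran from -1.36 to 0.53. Cyp2b13 differed by -0.44 (SE 0.37), Cyp2b9 by -0.19 (SE 0.23) and Cyp2b19, an epidermal arachidonic acid epoxygenase, by -0.18 (SE 0.34). On the brightest probes all 4 differences lay above 0 within day 2, between 0.25 and 0.32, and within day 1 all 4 lay below it.

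The 2 probes of Cyp2b13 gave different readings. The brightest lists transcripts of Cyp2b9, Cyp2b10 and Cyp2b13 and spans 6056 bases (mm7 chromosome 7, 22986378 to 22992433, plus strand), while a dimmer one (22992625 to 22992684) lists Cyp2b13 alone. The brightest is printed whole, and of the dimmer one the opening 30 bases are printed, so that the 2 readings can be told apart:
Cyp2b13: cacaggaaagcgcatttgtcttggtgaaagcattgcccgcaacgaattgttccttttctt
Cyp2b13 second probe: agagctgctggaaactagactgtatgttgc
The dimmer probe, chosen after its values were seen, was well above background in all 6 lungs. It measured -5.60, -5.47 and -4.40 in knockout 1, 11 and 12, against -3.21, -3.83 and -3.11 in wild type 11, 12 and 13. Its genotypes did not overlap, and its log2 difference was -1.77 (SE 0.39), with an unadjusted p of 0.00333 in a limma fit over all probes. Day 1 alone gave -2.42 and day 2 alone -0.88. The same cluster holds a Cyp2b10 probe that lists Cyp2b10 alone (22691069 to 22691128), printed as the 2b reading that overlapped between genotypes:
Cyp2b10: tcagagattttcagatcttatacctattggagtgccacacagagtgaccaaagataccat

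Transcripts of the cluster without a gene symbol were read as well, and they are no members. LOC233005, predicted in the array files as similar to Cyp2a12, is read by a probe on the minus strand of mm7 chromosome 7 (23775858 to 23775917), between the probes of Cyp2g1 and Cyp2a12:
LOC233005: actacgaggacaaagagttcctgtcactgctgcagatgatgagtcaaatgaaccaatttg
It measured -4.60, -3.79 and -2.43 in knockout 1, 11 and 12, against -1.08, -1.29 and 0.12 in wild type 11, 12 and 13. No values overlapped, and the lungs fell in the same order of level within the knockout as for Cyp2a4 and Cyp2a5. The log2 difference of LOC233005 was -2.86 (SE 0.64), with an adjusted p of 0.9997 in limma, -4.31 within day 1 and -1.25 within day 2. LOC243881, predicted as similar to a 2B enzyme, differed by -1.05 (SE 0.84) and overlapped. LOC545817, on chromosome 5, differed by -0.01 (SE 0.27).

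Cyp2f2, at the far end of the cluster, had a difference above 0. It encodes the club cell enzyme that turns naphthalene into a toxic epoxide, and its probe (mm7 chromosome 7, 24052410 to 24052469, plus strand) is shown as the reading of the best known P450 of these cells:
Cyp2f2: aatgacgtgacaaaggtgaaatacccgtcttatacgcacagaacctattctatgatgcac
The level was 6.72, 6.98 and 7.24 in knockout 1, 11 and 12, against 6.75, 6.41 and 6.62 in wild type 11, 12 and 13. Knockout 11 and 12 lay above every wild-type lung and knockout 1 among them. The log2 difference was 0.39 (SE 0.20), with a 95% confidence interval from -0.10 to 0.88 and an adjusted p of 0.9997 in limma. Day 1 alone gave 0.23 and day 2 alone 0.66, but over all lungs the difference was only 0.18 with quantile normalization, 0.08 with normexp correction and quantile normalization together and 0.10 in the authors' deposited values.

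In subfamily 4a, the omega-hydroxylases of fatty acids, Cyp4a12 had the smallest p of all P450 genes. Its product is the arachidonic acid hydroxylase of male mouse kidney, and both of its array probes list the near-identical genes now called Cyp4a12a and Cyp4a12b. The brightest probe (mm7 chromosome 4, 114709177 to 114709236, plus strand) gave -5.25, -5.83 and -5.73 in knockout 1, 11 and 12, against -2.86, -3.38 and -2.95 in wild type 11, 12 and 13. Both genotypes were tight and lay far apart. The log2 difference was -2.54 (SE 0.24, n = 3 each), or 5.80-fold, and limma gave an unadjusted p of 3.58e-05 (adjusted p 0.244). Day 1 alone gave -2.58 and day 2 alone -2.61, nearly the same value.

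The other Cyp4a12 probe (114704243 to 114705175, 933 bases of the genome for 60 of sequence) was well above background in 0 of 3 knockout lungs and 3 of 3 wild-type lungs, and it is printed because its knockout value is only a bound:
Cyp4a12: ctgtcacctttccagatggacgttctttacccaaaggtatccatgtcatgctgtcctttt
Its level was -7.09 ± 0.22 in the knockout and -4.29 ± 0.59 in the wild type (SD, n = 3 each). Set against, for each knockout array, the higher of its own signal and the lowest signal well above background, the knockout signal was lower by at least 5.12-fold. The size of the difference on the brightest probe changed with the processing, for reasons that were not tested. It was -2.60 with quantile normalization alone and -1.47 with normexp correction (offset 50) and quantile normalization together. In the authors' deposited values, which keep the local background, it was -1.61. Over the 21 alternatives its adjusted p in limma ran from 0.058 to 0.9999 and passed the threshold in 0.

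The remaining 4a genes, known as targets of the fatty acid sensing receptor Ppara, lay closer together. Cyp4a10 measured -2.50, -2.12 and -1.82 in knockout 1, 11 and 12, against -1.29, -1.69 and -1.71 in wild type 11, 12 and 13. The lungs did not overlap, though knockout 12 and wild type 13 were only a small step apart. The log2 difference of Cyp4a10 was -0.58 (SE 0.24), with a limma p of 0.0504 (adjusted p 0.9997), -0.59 within day 1 and -0.33 within day 2. These values come from the brightest probe alone. Another Cyp4a10 probe was well above background on 1 array and a further one on 0 arrays. Both overlapped between genotypes, with differences of -0.82 (SE 0.73) and -0.06 (SE 0.35). The brightest Cyp4a10 probe lies at mm7 chromosome 4, 114901988 to 114902047, plus strand, in the same cluster as Cyp4a12:
Cyp4a10: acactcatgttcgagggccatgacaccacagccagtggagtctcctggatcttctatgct
Cyp4a14 was well above background in 2 of 3 knockout lungs and 2 of 3 wild-type lungs and had values of -5.72, -8.61 and -6.31 in knockout 1, 11 and 12, against -6.41, -6.35 and -5.60 in wild type 11, 12 and 13. Knockout 11 alone was far below the rest, and the difference of -0.76 (SE 0.76) became 0.10 without it.

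Genes at either side of the 4a cluster overlapped between genotypes. Cyp4x1, a P450 best known from brain, differed by -0.19 (SE 0.34). Cyp4b1, an enzyme of lung that activates furan toxins, measured 5.30, 5.57 and 5.63 in knockout 1, 11 and 12, against 5.20, 5.11 and 5.68 in wild type 11, 12 and 13. Its log2 difference was 0.17 (SE 0.22), with a 95% confidence interval from -0.36 to 0.70, but it was 0.0056 with quantile normalization and turned to -0.0075 when normexp correction was added to that, to -0.0082 in the authors' deposited values and to -0.24 within day 1.

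Cyp2e1, which oxidises ethanol, acetone and many solvents, was the remaining member at an unadjusted p under 0.05. It lies on chromosome 7 far from the 2a genes (mm7, 137190949 to 137191008, plus strand). Its level was -2.71, -1.93 and -1.76 in knockout 1, 11 and 12, against -0.28, -1.72 and -0.02 in wild type 11, 12 and 13. Wild type 12 lay close to the knockout lungs, and the other wild-type lungs were well above them. The log2 difference was -1.46 (SE 0.51), or 2.76-fold, and limma gave an unadjusted p of 0.0272 (adjusted p 0.9997). Day 1 alone gave -2.30 and day 2 alone -0.77, and the value stayed between -1.99 and -1.14 when 1 lung was left out.

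The other subfamilies of drug and toxin metabolism showed no separation between genotypes. Differences in 2c ran from -1.40 to 0.37 over 6 genes, in 2d from -0.28 to 0.17 over 4 genes, in 2j from -0.56 to 0.10 over 4 genes and in 3a from -0.44 to -0.19 over 3 genes. At the low end of 2c stood Cyp2c66, an intestinal enzyme of arachidonic acid metabolism whose probe also lists Cyp2c65, with -5.93, -8.31 and -5.16 in knockout 1, 11 and 12, against -5.49, -5.94 and -3.77 in wild type 11, 12 and 13. Its difference of -1.40 (SE 0.94) was -3.35 within day 1 and 0.55 within day 2. Cyp2d9, a steroid hydroxylase of male mouse liver whose probe lists other 2d genes, differed by -0.28 (SE 0.28). The targets of the aryl hydrocarbon receptor Cyp1a1 and Cyp1b1 differed by 0.03 (SE 0.40) and 0.12 (SE 0.38).

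Outside the role group of drug, toxin and odorant metabolism, Cyp27b1 was the only gene besides Cyp4a10 and Cyp4a12 whose genotypes did not overlap. It carries out the final hydroxylation that activates vitamin D and measured -3.01, -4.05 and -3.07 in knockout 1, 11 and 12, against -2.59, -2.78 and -2.76 in wild type 11, 12 and 13. Knockout 11 set much of the difference of -0.67 (SE 0.31, limma p 0.0729, adjusted p 0.9997), which was -0.33 without that lung. Cyp2r1, which adds an earlier hydroxyl group to vitamin D, differed by -0.10 (SE 0.17), and the retinoic acid hydroxylases Cyp26a1 and Cyp26b1 differed by 0.11 (SE 0.21) and 0.08 (SE 0.95).

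Genes of the steroid and sterol role groups and the other fatty acid enzymes overlapped throughout. Cyp11a1, which cleaves the side chain of cholesterol, was well above background in 1 of 3 knockout lungs and 3 of 3 wild-type lungs and differed by -0.57 (SE 0.35). Cyp17a1, an enzyme of androgen synthesis, differed by -0.20 (SE 0.35). Cyp7a1, the rate-limiting enzyme of bile acid synthesis in liver, differed by -0.75 (SE 0.78), and by 0.16 without knockout 11. Cyp46a1, a cholesterol hydroxylase of neurons, differed by -0.18 (SE 0.33), and Cyp7b1, Cyp27a1 and Cyp39a1, which hydroxylate sterols and oxysterols, by 0.03 to 0.10. Cyp4v3, a fatty acid hydroxylase, differed by -0.49 (SE 0.29), and Cyp4f18, a leukotriene hydroxylase of mouse neutrophils, by -0.70 (SE 0.54), with 0.31 within day 1 and -1.42 within day 2. The signals of Cyp4f18 were 0.44, 1.85 and 0.73 in knockout 1, 11 and 12, against 2.48, 1.82 and 0.83 in wild type 11, 12 and 13, and the summed linear level of 9 macrophage and neutrophil markers ran from 134 to 269 in the knockout and from 134 to 391 in the wild type. The sum pools both cell types, and its 9 markers differed among themselves. Below 0 lay 8 of them (45.5% of all genes), among them Retnlg at -1.96 (SE 1.06), Csf3r at -1.62 (SE 0.91) and Mrc1 at -0.01 (SE 0.23). Chi3l3 lay above 0 at 0.24 (SE 0.32), and all 9 overlapped between genotypes. The part of macrophages and neutrophils in the Cyp4f18 values was not tested. Cyp20a1 differed by -0.23 (SE 0.33).

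None of the listed partners of P450 enzymes reached the unadjusted threshold, which 0.95% of all genes reached. Of 11 genes for electron donors and haem supply, 0 had an unadjusted p under 0.05 in limma in either direction, and their median difference was 0.02. Por, the reductase that serves all microsomal P450 enzymes, differed by 0.06 (SE 0.17), and Alas1, which starts haem synthesis, by 0.09 (SE 0.19). Of 18 nuclear receptors and other regulators of P450 genes, 0 had an unadjusted p under 0.05, with a median of 0.02. Among them Ppara differed by -0.12 (SE 0.44), the xenobiotic receptor Nr1i3 by 0.37 (SE 0.40), Ahr by -0.15 (SE 0.24) and the hepatic factor Hnf4a by 0.31 (SE 0.46). Of 10 flavin monooxygenases, epoxide hydrolases and other oxidative enzymes, again 0 had an unadjusted p under 0.05, and Fmo2, the flavin monooxygenase of lung, differed by 0.47 (SE 0.48). Prostacyclin synthase (Ptgis), thromboxane synthase (Tbxas1) and Cyp51, which have the P450 fold and are no members, differed by -0.36 to -0.03.

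Markers of the cells and tissues that express these P450 genes were measured beside them. Of 9 club cell genes, 2 were lower in the knockout at an unadjusted p under 0.05 in limma and 0 were higher. Of all genes 0.612% were lower and 0.338% higher at that threshold. Most of the list went the other way, with 3 differences below 0, 6 above it and a median of 0.15. Of all genes 45.5% had a difference below 0. The summed linear level of the list was 504 to 824 in the knockout and 514 to 653 in the wild type. The 2 lower genes were the antimicrobial lectin Reg3g, which differed by -5.69 (SE 1.87), and Bpifa1. Bpifa1, a secreted protein of the upper airways named Plunc in the array files, differed by -9.81 (SE 0.70, adjusted p of 0.070 in limma). Both genes were well above background in 2 of 3 knockout lungs and 3 of 3 wild-type lungs. In knockout 1 Reg3g, at -8.13, and Bpifa1, at -7.88, lay below the lowest detected signal of that array, -7.02. The sizes of these 2 differences therefore rest in part on background values. The secretoglobin Scgb1a1, the defining product of club cells, differed by 0.30 (SE 0.23). Another secretoglobin of the list, Scgb3a1, measured -0.79, 3.89 and 3.14 in knockout 1, 11 and 12, against 5.11, 4.52 and 5.20 in wild type 11, 12 and 13, without overlap. Its difference was -2.86 (SE 1.19), with a limma p of 0.0522 (adjusted p 0.9997). The summed level follows the brightest genes of the list and does not show such differences. Of 5 measured goblet cell genes 2 were lower, where 0.612% of all genes were. They were Tff2, a mucosal peptide, at -3.70 (SE 0.78), and Agr2 at -0.75 (SE 0.30), each with an adjusted p of 0.9997 in limma. Tff2 did not overlap between genotypes. Agr2 did, with knockout 12 at -3.18 above wild type 12 at -3.28. The summed level of the 5 was 0.44 to 1.47 in the knockout and 1.56 to 4.12 in the wild type, without overlap. Muc5b, the brightest of them in the wild type, differed by -1.60 (SE 0.94) and overlapped between genotypes, and Spdef differed by -0.10 (SE 0.19).

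Markers of tissues outside the lung were read as well. Of 8 genes of nasal and olfactory epithelium, where Cyp2a5 is known to be abundant, 2 were kept, and the odorant-binding proteins Obp1a and Obp2a were not well above background on 3 arrays. Of 10 hepatocyte genes 7 were kept and 0 had an unadjusted p under 0.05 (background 0.95%), with Apoa1, Apoc3 and Ttr below the detection rule. Their summed level, 10.96 to 14.6 in the knockout and 11.6 to 13.4 in the wild type, was mostly that of transferrin (Trf), while other members differed widely between lungs. Albumin, named Alb1 in the array files, measured -1.54, -4.45 and -4.02 in knockout 1, 11 and 12, against -2.20, -1.35 and -4.01 in wild type 11, 12 and 13. The serpin Serpina1d measured -0.44, -6.09 and -4.45 in knockout 1, 11 and 12, against -0.94, 0.49 and -4.35 in wild type 11, 12 and 13. Knockout 1, wild type 11 and wild type 12 were high for both, as they were for the fibrinogen chain Fgb. Of 8 genes of kidney proximal tubule 5 were kept, with 0 at an unadjusted p under 0.05 (background 0.95%). Their summed level was 3.92 to 8.52 in the knockout and 7.12 to 7.82 in the wild type, the lowest in knockout 11. The part of any of these cells in the P450 differences was not tested.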

How the data were processed

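Amplified RNA of 3 knockout and 3 wild-type lungs, in Cy3, was read on arrays of Agilent design 014868. The deposited scanner files hold an intensity per spot. Their headers name Feature Extraction 9.5.1.1 and the submitters' processing notes version 9.1. The processed signal had been background-subtracted and detrended per the file headers. The authors' deposited table holds log2 values with all column medians at 8.09, and they followed the scanner's mean signal without background subtraction (Spearman correlation across probes from 0.9995 to 0.9998). No source used here gives the steps behind that table. All probe sequences and positions (mm7) come from the array files, and no annotation of mm7 was used.

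Outlier spots were left out, which dropped 30 of 41174 probes, spots of a probe were averaged, and log2 of the processed signal was taken minus the 75th percentile of the array. The rule for members was applied to all genes alike. The genotypes were compared without covariates by a two-sided moderated test (lmFit and eBayes of limma 3.58.1, R 4.3.3). The test was also run on simulated data without scan day or slide effects, so its behaviour under such effects was not tested. The p-values were adjusted by Benjamini and Hochberg's method across the 20423 genes. Second probes were read from a fit over all probes. Array names were matched to RefSeq symbols for 32688 probes. Linked paralogs were found from transcripts listed for 1 probe or overlapping positions, since no protein table was used. Named are all kept members of 2a, 2b, 2f, 4a and 4b, other members at an unadjusted p under 0.05 without overlap, up to 2 of each role by p, and genes at the detection threshold. The members and the lists of roles, partners and markers were chosen with earlier results of these data known, and no list was tested. Summed levels are linear and relative to the 75th percentile. The number of arrays limits the precision.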

Additional observations from a re-analysis of the deposited data

How the results depend on the processing

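Alternatives covered the scaling, the background correction, the authors' values, the filter on dim probes, the choice of probe, scan day, slide, replicate number, the variance model, array weights and each lung left out. P450 genes past the adjusted threshold in limma numbered 0 in all 21 of them. At an unadjusted p under 0.05, where 4 were counted, there were 15 within scan day 2 (29.4%, where 19.6% of all genes were called), 9 with array weights (17.6%, where 20.6% of all genes were) and 3 to 10 when 1 lung was left out, 10 of them without knockout 12 (19.6%, where 4.18% of all genes were). Of all genes, where 0 passed, 2 did with median scaling, 1 with normexp correction and quantile normalization together, 1 in the authors' values, 2 with slide as a random block, 1 with trended and robust variance, 2 with array weights and 0 to 1 when 1 lung was left out.

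Knockout and wild type share only the numbers 11 and 12, and nothing in the labels pairs them. Deviations from the group means correlated at -0.25 between the lungs numbered 11 and at 0.42 between those numbered 12. The correlations are across genes, which are not independent replicates. Over all pairs of a knockout and a wild-type lung they ran from 0.27 to 0.57 within a scan day. Between scan days they ran from -0.58 to -0.21. With the replicate number as a block 0 P450 genes passed the adjusted threshold and 5 had an unadjusted p under 0.05 (9.80%, where 3.11% of all genes did), while Cyp2b9 turned to 0.0049 and Cyp2d9 to 0.0053.

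Differences of named genes that changed sign had not passed the threshold in any fit. Within scan day 2 Cyp2b10 turned to 0.32, Cyp2b13 to 0.32, Cyp2b19 to 0.30, Cyp2b9 to 0.25, Cyp4a14 to 0.065, Cyp20a1 to 0.35, Cyp2r1 to 0.10, Cyp17a1 to 0.30, Cyp7a1 to 0.68, Cyp46a1 to 0.20, Cyp2c66 to 0.55 and Cyp2d9 to 0.37. Within scan day 1 Cyp4b1 turned to -0.24, Cyp4f18 to 0.31 and Cyp26a1 to -0.17. Cyp4b1 was 0.0056 with quantile normalization, -0.0075 with normexp correction added to it and -0.0082 in the authors' values, and Cyp26a1 was -0.0041 with quantile normalization and -0.0098 with normexp correction added. With slide as a random block Cyp2b19 was 0.054 and Cyp46a1 0.046, and with array weights Cyp17a1 was 0.069. Leaving out 1 lung gave Cyp2b19 values from -0.42 to 0.18, Cyp4a14 from -1.34 to 0.10, Cyp17a1 from -0.38 to 0.085, Cyp7a1 from -1.38 to 0.16, Cyp46a1 from -0.38 to 0.18 and Cyp26a1 from -0.030 to 0.24. The cause was not tested. Members near the detection limit, such as Cyp4a14 and Cyp26a1, have values that background can set.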

Other observations

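Markers of the remaining lung cell types were read beside the P450 genes. Of 10 ciliated cell genes, 9 genes of alveolar type 2 cells, 8 endothelial genes, 8 genes of fibroblasts and smooth muscle and 9 genes of macrophages and neutrophils, 0 had an unadjusted p under 0.05 in limma. Of all genes 0.95% did. Of 6 basal cell genes 1 was lower at that threshold, where 0.612% of all genes were. It was the keratin Krt15 at -1.45 (SE 0.43), with -5.15, -6.23 and -5.77 in knockout 1, 11 and 12, against -3.61, -4.99 and -4.23 in wild type 11, 12 and 13. Krt15 and the keratin Krt5, at -0.96 (SE 0.51), were lower without overlap, where 1.45% of all genes were. In the other lists here only Sftpc did not overlap. It was higher in the knockout by 0.44 (SE 0.21), where 2.71% of all genes were higher without overlap.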
